A study of Drosophila melanogaster with 6 samples.

Results

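Splice junctions that span an intron of 20 kb or more were described in testes of Drosophila melanogaster. A junction entered when the distance between its ends was at least 20 kb, its terminal dinucleotides were GT and AG on either strand (motif code 1 or 2), and at least 1 read that mapped to a single place crossed it. The junction table of 1 library, Pcf11 knockdown replicate 1, held 109699 rows, of which 2815 met this rule. They are called long junctions here and were set beside the 94800 GT-AG junctions under 20 kb in the same table, called shorter junctions. All 6 libraries were made from polyadenylated RNA of whole testes, 150 pairs for each library. The cbc knockdown (bamGal4>cbcKD, stock BL 77426) and the Pcf11 knockdown (bamGal4>PCf11KD, stock VDRC 103710) each had 2 libraries, and the control with the bamGal4 driver and no hairpin had 2. Parents were crossed for 3 days at 25 °C, and the progeny of every genotype grew at 29 °C. The driver is active in the last spermatogonial divisions and early spermatocytes, so RNA of somatic cells came from cells in which it was not active. Older germ cells descend from cells in which it was active. Gene counts were used for cbc knockdown replicates 1 and 2, Pcf11 knockdown replicate 2 and both controls, and junction reads for Pcf11 knockdown replicate 1 alone. Junction values therefore have no replicate and no test, and their exact binomial 95% intervals cover counting error only.

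Most introns of the fly are shorter than a kilobase, and a small class is far longer and often holds other genes. Polymerase needs a long time to cross them, and some are removed in steps through internal sites at which an acceptor directly adjoins a donor. The Y chromosome carries giant genes, among them the axonemal dynein heavy chains kl-2, kl-3 and kl-5, which are transcribed in spermatocytes and whose introns hold large blocks of satellite repeats. Pcf11 and Cbc are parts of a cleavage factor that is needed for nascent transcripts to be cut at the polyadenylation site.

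The hairpins' targets were checked in the gene counts first. Pcf11 had 24.2 CPM in Pcf11 knockdown replicate 2, against 49.9 and 54.7 CPM in the controls (log2 fold change -1.11 ± 0.11 SE, adjusted p = 3.02e-06, edgeR quasi-likelihood test with Benjamini-Hochberg adjustment). The gene cbc had 4.04 and 3.2 CPM in the cbc knockdown libraries, against 52.5 and 56.9 CPM in the controls (-3.92 ± 0.13, adjusted p = 3.73e-10). No such check was made for Pcf11 knockdown replicate 1, whose gene counts were not analysed here. The testis markers were present, with 1886 and 1969 CPM summed over 8 spermatocyte and spermatid genes in cbc knockdown, 4518 CPM in Pcf11 knockdown and 2894 and 2334 CPM in the controls. Counts assigned to genes came to 18954932 and 20510200 in cbc knockdown, 79053532 in Pcf11 knockdown replicate 2, and 76132580 and 73600622 in the controls. The junction table held 10381354 uniquely mapped and 958332 multi-mapped reads.

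Long junctions were few, thinly read and mostly outside the annotation. They carried 39495 unique reads, 0.394% of the unique reads on GT-AG junctions. Of the 2815 long junctions 548 had the same start, end and strand as an intron in the annotation used (19.5%, interval 18.0 to 21.0), against 46065 of the shorter junctions (48.6%, interval 48.3 to 48.9). Annotated long junctions had a median of 6 unique reads (quartiles 2 and 18.25), and unannotated ones a median of 1 (quartiles 1 and 3). A single unique read supported 50.9% of the unannotated long junctions and 18.6% of the annotated ones. The annotated 19.5% of the long junctions held 17123 unique reads, 43.4% of the reads of the class. The table's own column for annotated junctions was set to 1 in 99.7% of its rows, while 43.1% of the rows matched an annotated intron, so that column was not used.

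At the length limit the 3 shortest long junctions spanned 20012 bases within twin with 1 read, 20019 bases within rsh with 26 reads, and 20022 bases next to CG32264 with 1 read. The 3 longest of the shorter junctions spanned 19985 bases within CG32365 with 3 reads, 19983 bases between CG9663 and Fign with 1 read, and 19976 bases from phtf with 6 reads. The limit therefore cut through a continuous range of lengths.

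Read support fell with intron length among annotated junctions and not among unannotated ones. The median annotated junction had 41 unique reads under 0.1 kb, 20 from 0.1 to 1 kb, 11 from 1 to 5 kb, 10 from 5 to 10 kb, 9 from 10 to 20 kb, 6 from 20 to 50 kb and 4 at 50 kb and more. Unannotated junctions had a median of 1 or 2 reads in each of these length classes. Detection of annotated introns followed the same order. At least 1 unique read crossed 548 of 995 annotated introns of 20 kb or more (55.1%, interval 51.9 to 58.2), against 46065 of 59513 shorter ones (77.4%, interval 77.1 to 77.7). It was 56.3% (interval 52.7 to 59.8) from 20 to 50 kb and 50.7% (interval 43.8 to 57.5) at 50 kb and more, and 86.2% (interval 85.8 to 86.6) under 0.1 kb.

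**Figure D1:**
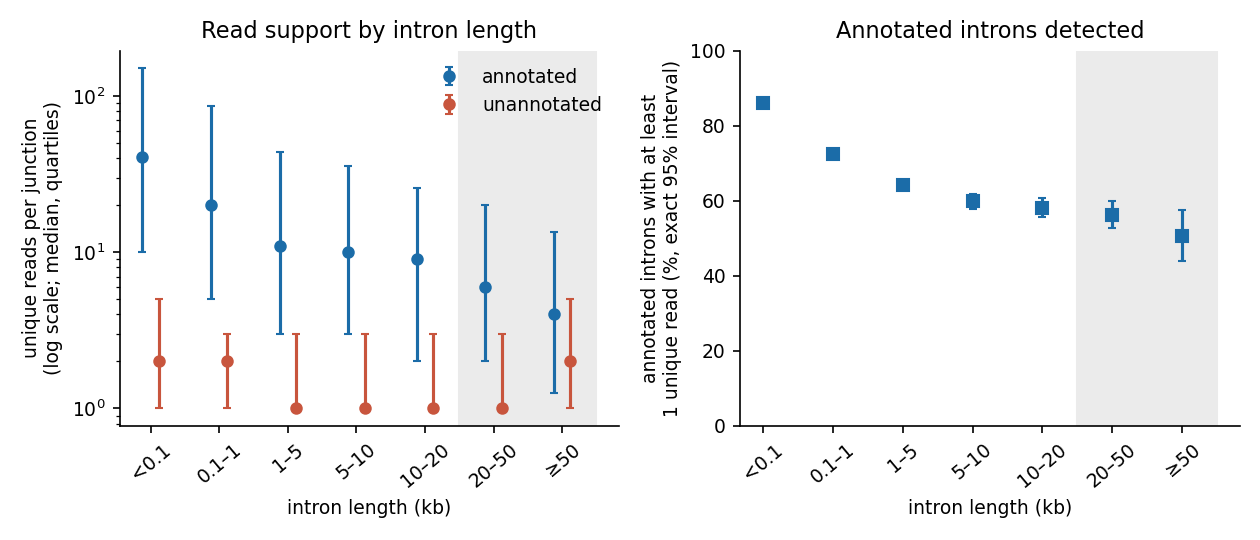
Left, unique reads per GT-AG junction (log axis, points are medians, bars are quartiles) by intron length in kb for annotated and unannotated junctions; right, percent of annotated introns crossed by at least 1 unique read with exact 95% intervals. The grey band marks 20 kb and more, where annotated junctions had medians of 6 and 4 reads, against 41 under 0.1 kb, and unannotated ones 1 and 2.

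Genes whose long introns were all undetected had lower levels than genes with a detected one, and 447 annotated introns of 20 kb or more had no unique GT-AG read. In all, 507 genes had an annotated intron of that size, 349 with at least 1 detected and 158 with none. In Pcf11 knockdown replicate 2 the median level was 2.04 RPKM, the CPM per kilobase of exon, in the 345 genes with a detected long intron that the count files held (quartiles 0.723 and 5.07). It was 0.372 RPKM (quartiles 0.0670 and 1.35) in the 154 genes with undetected ones only. Within each range of level, shorter introns of these genes were detected more often than long ones. In genes at 10 RPKM and more, 95 of 140 long introns were detected (67.9%, interval 59.4 to 75.5), against 537 of 688 shorter ones (78.1%, interval 74.8 to 81.1). From 1 to 10 RPKM the shares were 67.1% (interval 62.6 to 71.4) of long and 76.5% (interval 74.9 to 78.1) of shorter introns. From 0.1 to 1 RPKM they were 44.3% (interval 38.5 to 50.2) and 60.3% (interval 57.8 to 62.8), and under 0.1 RPKM 13.1% (interval 7.18 to 21.4) and 40.7% (interval 36.2 to 45.3). The longest intron without a unique read was 268107 bases in Myo81F, a myosin heavy chain gene, followed by 189627 bases in lovit. Of the 447 introns 10 had multi-mapped reads alone, and 2 had unique reads filed under another motif code.

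The most-read annotated long junctions lay in bru1, lobo and heph. The 2 highest were successive introns of bru1, which encodes an RNA-binding translational repressor. The intron at 2L:12206131-12240867 (34737 bases, BDGP6, plus strand, 5′ untranslated region) had 1668 unique reads and the next one, at 2L:12241781-12271590 (29810 bases), had 1551. A junction that joins the outer ends of both and skips the exon between them had 43 reads, and the longest one in the gene, 96170 bases, had 3. Then came lobo, which encodes a component of the sperm axoneme, with 701 reads on 1 intron of 20919 bases in the coding region. The naming rule on most-read junctions stops above heph. This ranking by reads from heph downward was chosen after the values were seen. With at least 4 long junctions each, heph and sm fall under another part of the naming rule. An intron of 77163 bases in heph, the polypyrimidine tract-binding protein needed for spermatid individualization, had 575 reads, the most on any annotated junction of 50 kb and more. Next were Jupiter, which binds microtubules, with 484 reads, and klhl10, an adaptor of a ubiquitin ligase in spermatids, with 459. CG45263 had 447 reads, the kinase gene cdi 438, CG6051 415, the kinase gene nmo 360, sm, an hnRNP L homologue, 322, and CG46385 315.

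**Figure D2:**
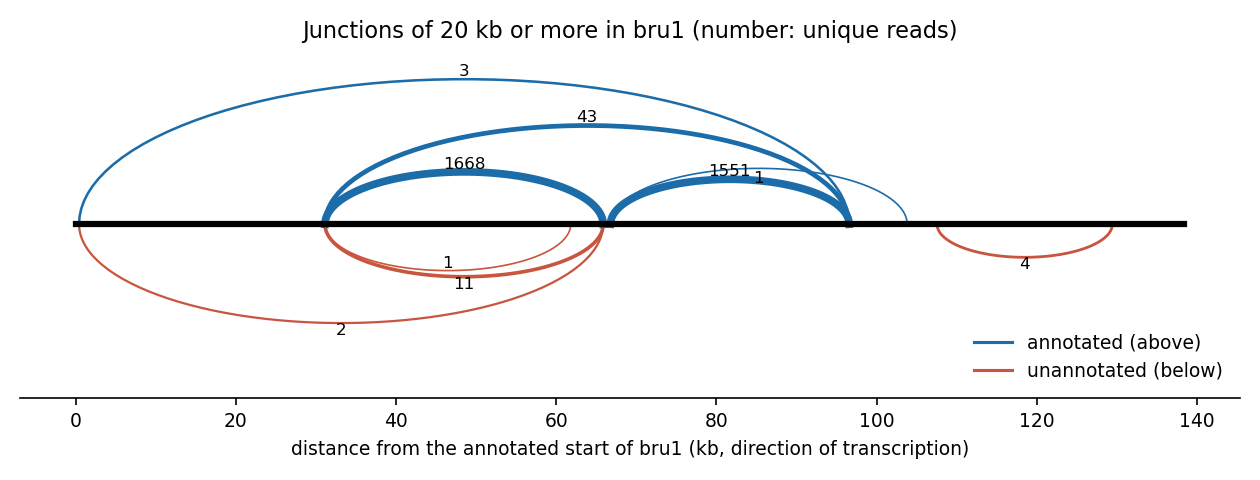
The 9 junctions of 20 kb or more inside bru1, by distance from the gene's annotated start in kb, with arc height following intron length and the unique reads written at each arc. The 2 annotated junctions with 1668 and 1551 reads lie end to end around a short exon, which the 43-read arc skips, and the 4 unannotated arcs below have 1 to 11 reads.

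The longest introns were read a few times each. Of the 2815 long junctions 18 spanned 100 kb or more, all of them annotated and with 1 to 18 reads, in 12 genes. Myo81F held the longest, 257022 bases at 3R:1588539-1845560 with 2 reads, as well as introns of 169882 bases with 3 reads and 121036 bases with 2 reads. Pzl, a member of the Piezo family of mechanosensitive channels, had 8 reads over 196842 bases and 2 reads over 131735 bases. In pum, the RNA-binding repressor Pumilio, 4 reads crossed 132737 bases. The longest unannotated junction spanned 99713 bases. A single unique read supported 56.1% of unannotated junctions from 20 to 50 kb and 34.5% at 50 kb and more. Whether a length limit of the aligner for junctions outside its annotation set these values was not tested.

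Annotated long introns lay in the 5′ untranslated region more often than shorter ones. The share that was the first intron of at least 1 transcript differed less, at 34.9% (interval 30.9 to 39.0) of long and 30.4% (interval 30.01 to 30.9) of shorter annotated introns. Position was taken from the transcript in which an intron came earliest in order, and it can differ in other transcripts of the gene. The long ones, all of them detected, lay in the 5′ untranslated region in 179 of 548 cases (32.7%, interval 28.7 to 36.8), against 12.9% (interval 12.6 to 13.2) of shorter annotated introns. Those that interrupt coding sequence made up 65.0% (interval 60.8 to 69.0) of the long and 83.1% (interval 82.8 to 83.4) of the shorter annotated introns. Another annotated gene lay wholly inside 267 of the 548 (48.7%, interval 44.5 to 53.0), with up to 23 in a single intron. The median was 6 reads both for the 267 long introns with a nested gene and for the 281 without.

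Within the same gene, detected long junctions had fewer reads than detected shorter ones among later introns, and not among first introns. The measure was the reads of each annotated long junction over the median of the gene's annotated shorter junctions, in genes with at least 3 of them. Introns without a unique read did not enter it. In the 507 genes with an annotated long intron, 55.1% of long and 69.2% of shorter introns were detected, so more of the long ones were left out. How this shifts the comparison of long with shorter introns, first or later, was not tested. Over 486 long junctions in 305 genes the median ratio was 0.526 (quartiles 0.222 and 1.05), and 336 of the 486 were below 1. For shorter junctions of these genes the ratio is near 1 by construction, and its median was 1.0. First introns were low at any length, with a median ratio of 0.417 for 169 long and 0.273 for 423 shorter ones. Later introns differed by length, with 0.625 (quartiles 0.286 and 1.15) for 317 long ones, against 1.07 (quartiles 0.606 and 1.74) for 2516 shorter ones. Among later introns the median was 0.689 from 20 to 50 kb and 0.50 at 50 kb and more. In an alternative chosen after the data were seen, only introns present in every transcript that spans them were kept, and the median over 246 long junctions in 192 genes was 0.547, with 182 below 1.

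**Figure D3:**
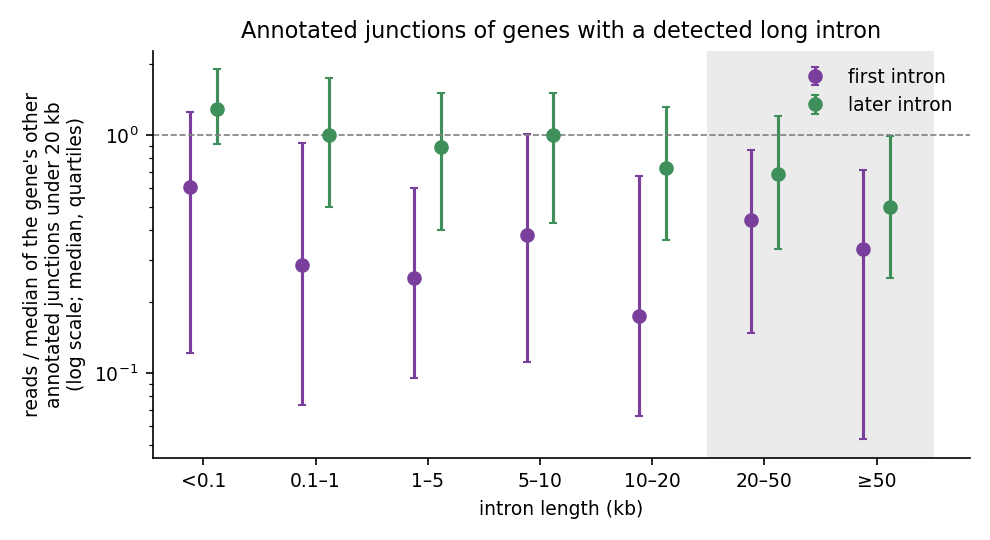
Reads of each detected annotated junction over the median of its gene's other detected annotated junctions under 20 kb (log axis, points are medians, bars are quartiles), by intron length in kb, for introns that are the first of a transcript and later ones. The grey band marks 20 kb and more, where later introns had medians of 0.689 and 0.50 and first introns 0.439 and 0.333.

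Pairs of junctions inside the same intron, 1 ending at the base before the other begins, were counted. The measure was taken up after the data were seen. Stepwise removal need not leave such a pair, since its last step can join the outer exons and read as the whole intron. The count therefore cannot show how often long introns are removed in steps. Of 548 annotated long introns 2 were filled completely by such a pair (0.365%, interval 0.0442 to 1.31), against 24 of 46065 shorter annotated introns (0.0521%, interval 0.0334 to 0.0775). In heph, an intron of 20395 bases with 78 reads was also read as a stretch of 9737 bases with 448 reads and a stretch of 10658 bases with 5 reads. In Mnr, an intron of 57398 bases with 1 read was also read as stretches of 1864 and 55534 bases with 1 read each, whose overhangs were 8 and 5 bases. The 9737-base stretch of heph and the 55534-base stretch of Mnr are annotated introns themselves.

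The Y chromosome held a larger share of the long junctions than of the shorter ones, and 67 of its long junctions were unannotated. It held 76 of the 2815 (2.70%, interval 2.13 to 3.37), against 0.357% (interval 0.320 to 0.397) of shorter junctions, and 9 of the 548 annotated ones (1.64%, interval 0.754 to 3.09), against 0.148% (interval 0.115 to 0.187) of annotated shorter junctions. The annotation itself, read or not, had 13 of its 995 long introns and 94 of its 59513 shorter ones on the Y. The contrast among annotated junctions was therefore already present in the gene models. The X held 11.8% (interval 10.7 to 13.1) of long and 13.1% (interval 12.8 to 13.3) of shorter junctions. Among annotated junctions it held 17.0% (interval 13.9 to 20.4) of long and 15.4% (interval 15.1 to 15.8) of shorter ones, which turns the direction, and the shorter share lies within the interval of the long. Chromosome arms 3L, 3R, 2R and 2L held 650, 582, 556 and 539 long junctions, the X 333, the fourth chromosome 27 and the ribosomal DNA scaffold 45. Detection of annotated long introns was lowest on the X, with 93 of 226 (41.2%, interval 34.7 to 47.9). On the Y it was 9 of 13 (69.2%, interval 38.6 to 90.9), and on the 4 large autosome arms it ran from 56.5% to 61.8%. Shorter annotated introns were also detected less often on the X (72.2%, interval 71.3 to 73.1) than on these arms (78.1% to 78.9%).

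The 9 annotated Y junctions lay in kl-5, kl-3, kl-2, Ppr-Y, ORY and WDY. The dynein heavy chain gene kl-5 had 34 reads over 22948 bases, and no read was filed for its annotated intron of 53833 bases. In kl-3, 18 reads crossed 120259 bases and 22 crossed 39582 bases. In kl-2, 19 reads crossed 23234 bases and 10 crossed 39011 bases. The largest Y intron with reads was that of Ppr-Y, with 10 reads over 150611 bases, and its next intron of 80361 bases had 5 unique and 19 multi-mapped reads. ORY had 21 reads over 48321 bases, and WDY had 16 over 36709 bases.

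Annotated Y introns outside the rule were not all silent. The 137947-base intron of WDY was filed with no strand and no recognized motif, with 9 unique reads that overlapped an exon by at most 9 bases. Its 36185-base intron had 17 reads, all multi-mapped, while a junction of 32110 bases from the same donor had 4 unique and 17 multi-mapped reads. PRY had no read on its annotated intron of 31977 bases, but 10 unique reads crossed an unannotated junction of 31533 bases whose ends lay inside that intron. The most-read Y junction of all, at Y:3294458-3365174, was unannotated, lay in no gene on its strand, and had 677 unique and 2073 multi-mapped reads. A junction of the same length, 70717 bases, was filed close by on the other strand with 7 unique and 34 multi-mapped reads. Likewise, junctions of 30885 bases were filed on both strands, with 23 and 18 unique reads. The places of such reads are uncertain, and whether these unannotated junctions are introns of Y transcripts was not tested.

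Unannotated long junctions had shorter overhangs than annotated long ones and than unannotated shorter ones. The median overhang, the longest stretch of read aligned on the shorter side of the junction, was 22 bases in unannotated long junctions, 65 in annotated long junctions and 47 in unannotated shorter junctions. An end lay in an annotated transposable element in 4.68% (interval 3.84 to 5.63) of unannotated long junctions, 0.365% (interval 0.0442 to 1.31) of annotated long ones and 1.39% (interval 1.29 to 1.499) of unannotated shorter ones. Reads mapped to several places made up 36.0% of all reads on unannotated long junctions and 2.43% on annotated long ones. On unannotated shorter junctions they made up 51.2%, a pooled share to which a single shorter junction can add up to 44277 reads. Counted by junction, at least 1 multi-mapped read was found on 15.0% (interval 13.5 to 16.5) of unannotated long junctions and 11.9% (interval 9.27 to 14.9) of annotated long ones. It was found on 7.68% (interval 7.45 to 7.92) of unannotated shorter junctions and 13.9% (interval 13.6 to 14.2) of annotated shorter ones.

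The 2267 unannotated long junctions fell into 4 positions. Both ends lay in the same gene in 439, in different genes of the same strand in 434, only 1 end lay in a gene in 788, and neither did in 606. Of those without an end in a gene of their own strand, 287 had both ends in genes of the opposite strand, 213 of them in a pair of genes. A junction of 86471 bases at 2R:16535959-16622429 had 1928 reads with an overhang of at most 12 bases, and its ends lay on the strand opposite to loopin-1 and CG5065. One of 24182 bases in the ribosomal DNA scaffold had 1839 reads, with ends on the strand opposite to copies of 28S rRNA genes. One of 32445 bases at 2L:13211977-13244421 had 1319 reads, with ends opposite to the U2 snRNA genes snRNA:U2:34ABa and snRNA:U2:34ABc. The next 3 by reads had 1097 reads between the overlapping genes Bet3 and Nf-YA and the overlapping genes Atat and CG3982, 698 reads near CG5768 with an overhang of at most 4 bases, and the 677 reads on the Y given above. Copies of rRNA and snRNA genes are near-identical, so the places of those reads are uncertain.

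A smaller group of unannotated junctions joined a known donor to a known acceptor. Of these 144 lay within a gene (5.12% of the long junctions), against 1273 of the shorter junctions (1.34%). The 3 with most reads, chosen after the values were seen, were 51 reads over 22325 bases in Imp, an RNA-binding protein, 50 reads over 22717 bases in Msp300, the fly nesprin, and 36 reads over 25114 bases in B4. Another 89 ran from a donor in 1 gene to an acceptor in a different gene downstream on the same strand (3.16% of the long junctions), against 291 of the shorter junctions (0.307%). Of the 89, 34 had no other gene of that strand wholly between the ends. The highest, likewise chosen after the values were seen, were 34 reads from CG45263 to Veneno over 26902 bases and 31 reads from Tim17b1 to CG1161 over 54932 bases. With junction reads of a single Pcf11 knockdown library, no comparison with control testes could be made for any of these junctions.

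The host gene of a long junction was the gene with the matching intron, or else the shortest gene on the strand that spanned both ends. Of the 2815, 987 had such a host, and the 394 hosts included 386 protein-coding genes. A single long junction was found in 189 hosts, 75 had at least 4 and 11 had at least 10. DIP-lambda, which encodes a neuronal surface protein of the immunoglobulin family, had 17 of them, 7 annotated, with 84 reads in all. heph had 15, of which 8 were annotated, and Ir41a, a receptor gene of the ionotropic family, had 15, of which 2 were annotated. All 12 long junctions of sm were annotated, as were 9 of the 11 of lola, a gene known for its many alternative transcripts. l(3)80Fg and Myo81F had 12 each.

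Gene counts were then used to ask how the hosts differed between genotypes. The hosts were found in a Pcf11 knockdown library, so they are genes with reads there. Of the 394 hosts 349 had an annotated long junction, and 45, among them sns and unc-13-4A, had unannotated ones only. Of 394 hosts 383 had at least 10 counts in at least 2 libraries and were tested among 13960 genes. These are whole testes, so fewer cells of a type and less RNA per cell cannot be told apart. Nothing in the labels shows that libraries of the same genotype are independent collections of flies, so a p-value here measures sample-to-sample spread that could be technical. The Pcf11 comparison rests on 1 library, assumed to vary like the rest. The cbc libraries had the fewest counts, and among the libraries with gene counts only theirs carry the naming style shared by Pcf11 knockdown replicate 1, the junction library. The titles of Pcf11 knockdown replicate 2 and the controls share another style, so the Pcf11 libraries used for junctions and for gene counts differ in it. Depth, whatever the naming marks, and the cbc knockdown cannot be told apart.

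In cbc knockdown 168 of 383 hosts rose and 123 fell relative to control, 43.9% and 32.1%, against 36.3% and 37.8% of all genes tested. The median log2 fold change was 0.17 for the hosts, against -0.02 for all genes. With library totals in place of TMM factors 212 hosts rose and 82 fell, and the median of all genes moved to 0.23. Host genes took 2.94% and 3.01% of gene counts in cbc knockdown, 2.32% in Pcf11 knockdown, and 2.16% and 2.20% in the controls, so that this unscaled share was highest in cbc knockdown and in Pcf11 knockdown lay above both controls. The 138 tested genes with undetected long introns only had a median of 0.82, and 85 of them rose and 27 fell. Among the genes with the lowest control levels, where all genes were cut into 3 equal parts, the hosts with an annotated long junction had a median of 0.77, against 0.69 for all genes there, and among those with the highest 0.04, against -0.24.

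In Pcf11 knockdown 102 hosts rose and 193 fell relative to control, 26.6% and 50.4%, against 32.6% and 36.4% of all genes tested. The median was -0.38 for the hosts, against -0.06 for all genes. With library totals 68 rose and 226 fell, and the median of all genes was -0.35, and with relative log expression factors 121 rose and 173 fell, with a median of 0.09 over all genes. Among the genes in the highest of the 3 parts by control level the hosts with an annotated long junction had a median of -0.27, against 0.17 for all genes there. By length of the longest annotated junction the medians were -0.54 from 20 to 30 kb, -0.12 from 30 to 50 kb and -0.43 at 50 kb and more, in no order of length. The genes with undetected long introns only had a median of -0.14, with 37 higher and 41 lower.

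Set directly against Pcf11 knockdown, 258 of 383 hosts were higher in cbc knockdown and 60 were lower, 67.4% and 15.7%, against 42.2% and 29.7% of all genes tested. The median was 0.71 for the hosts and 0.27 for all genes. With library totals 311 were higher and 19 lower, and the median of all genes was 0.80.

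**Figure D4:**
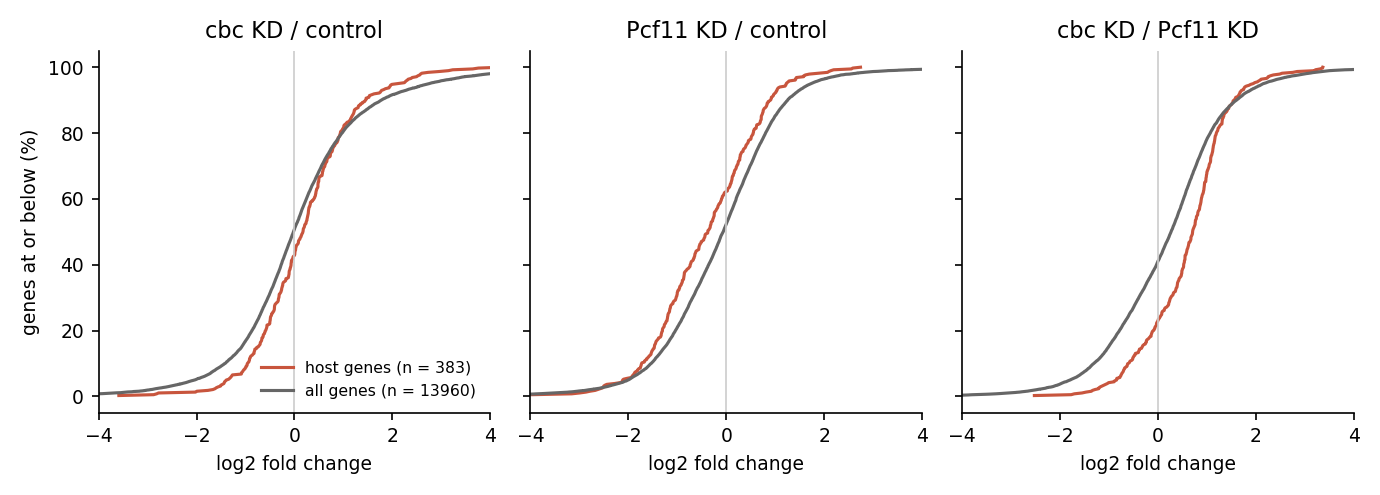
Cumulative percent of genes by log2 fold change for the 383 tested host genes and all 13960 genes tested, in cbc knockdown over control, Pcf11 knockdown over control and cbc knockdown over Pcf11 knockdown. The host curve lies to the right of all genes in the first panel (medians 0.17 and -0.02), to the left in the second (-0.38 and -0.06) and to the right in the last (0.71 and 0.27).

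Markers of other cell types moved between genotypes as well, and their part in the host results was not tested. Shares over all genes tested were 36.3% higher and 37.8% lower in cbc knockdown, and 32.6% higher and 36.4% lower in Pcf11 knockdown. Muscle sheath markers, 8 genes, summed to 648 and 646 CPM in cbc knockdown, 525 CPM in Pcf11 knockdown, and 770 and 781 CPM in the controls. Cyst and hub cell markers, 7 genes, summed to 152 and 144 CPM in cbc knockdown, 127 CPM in Pcf11 knockdown, and 224 and 223 CPM in the controls. Neuronal markers, 6 genes, summed to 51.5 and 54.7 CPM in cbc knockdown, 30.02 CPM in Pcf11 knockdown, and 40.9 and 38.4 CPM in the controls. Their members moved in opposite directions. brp, a protein of the presynaptic active zone, had 35.1 and 40.1 CPM in cbc knockdown, 19.4 CPM in Pcf11 knockdown, and 9.52 and 9.31 CPM in the controls. nSyb, the neuronal synaptobrevin, had 7.35 and 5.50 CPM in cbc knockdown, 3.92 CPM in Pcf11 knockdown, and 22.5 and 21.8 CPM in the controls. In all 3 of the 6 rose and 3 fell in cbc knockdown, and 2 rose and 3 fell in Pcf11 knockdown. Of the 4 spermatogonial markers 3 were in the count files, and these summed to 167 and 167 CPM in cbc knockdown, 181 CPM in Pcf11 knockdown, and 87.9 and 86.4 CPM in the controls. That sum followed mei-P26, with 137 and 144 CPM in cbc knockdown, 172 CPM in Pcf11 knockdown, and 61.97 and 57.1 CPM in the controls. The other members, vas and bam, did not pass the test in cbc knockdown (-0.06 and -0.15 on the log2 scale) and fell in Pcf11 knockdown by 1.84 and 0.996. Of the 8 spermatocyte and spermatid markers 3 rose and 4 fell in cbc knockdown, and 4 rose and 3 fell in Pcf11 knockdown. No marker in the count files was at 0 in all libraries. Of the 8 muscle sheath markers 2 rose (sls and bt) and 5 fell in cbc knockdown, and 1 rose (sls) and 7 fell in Pcf11 knockdown, where sls made up 272 CPM of the sum. Of the 7 cyst and hub markers 1 rose (so) and 4 fell in cbc knockdown, and 0 rose and 3 fell in Pcf11 knockdown, against 36.4% of all genes tested that fell. Fas3, one of the hub markers, is itself a host.

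The hosts with the most-read junctions did not move together. lobo had 67.4 and 66.2 CPM in cbc knockdown, 384 CPM in Pcf11 knockdown, and 193 and 186 CPM in the controls. The groups were separate, with a log2 fold change of -1.505 ± 0.08 SE in cbc knockdown (adjusted p = 1.27e-08, edgeR quasi-likelihood test) and 1.02 ± 0.09 in Pcf11 knockdown (1.33e-06). klhl10 had 38.1 and 40.2 CPM in cbc knockdown, 114.7 CPM in Pcf11 knockdown, and 123 and 100 CPM in the controls. It fell in cbc knockdown (-1.51 ± 0.10, adjusted p = 1.17e-07) and lay within the controls in Pcf11 knockdown (0.04 ± 0.12, 0.780). bru1 had 829 and 940 CPM in cbc knockdown, 1473 CPM in Pcf11 knockdown, and 1028 and 882 CPM in the controls. It rose in Pcf11 knockdown (0.62 ± 0.12, adjusted p = 5.05e-04), and in cbc knockdown its value was -0.11 ± 0.10 (0.320), which turned to 0.14 with library totals. heph had 444 and 436 CPM in cbc knockdown, 234 CPM in Pcf11 knockdown, and 356 and 362 CPM in the controls. It rose in cbc knockdown (0.29 ± 0.08, adjusted p = 0.00392) and fell in Pcf11 knockdown (-0.62 ± 0.09, 1.11e-04).

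The 7 hosts on the Y were lower in cbc knockdown with a single exception, while over all genes tested 37.8% fell and 36.3% rose. kl-5 had 36.4 and 37.6 CPM in cbc knockdown, 83.9 CPM in Pcf11 knockdown, and 106 and 73.3 CPM in the controls. kl-3 had 19.0 and 21.5 CPM in cbc knockdown, 44.8 CPM in Pcf11 knockdown, and 46.4 and 28.7 CPM in the controls. ORY, which encodes an occludin-related protein, had 3.22 and 3.28 CPM in cbc knockdown, 7.52 CPM in Pcf11 knockdown, and 13.5 and 8.66 CPM in the controls. In all 3 genes both cbc libraries were below both controls, and the controls differed widely from each other. Against control, kl-5 fell by 1.28 on the log2 scale in cbc knockdown (SE 0.14, adjusted p = 7.70e-06, edgeR quasi-likelihood test), kl-3 by 0.89 (SE 0.18, 9.10e-04) and ORY by 1.77 (SE 0.21, 1.38e-05). kl-2, WDY and Ppr-Y fell by 0.72, 1.01 and 1.01. PRY, which encodes a polycystin-related protein and had unannotated long junctions only, rose by 0.89 (SE 0.13, 8.29e-05), with 10.3 and 11.3 CPM in cbc knockdown, 10.3 CPM in Pcf11 knockdown, and 6.24 and 5.43 CPM in the controls.

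In Pcf11 knockdown 1 Y host rose, PRY (0.81 ± 0.15, adjusted p = 4.86e-04, edgeR quasi-likelihood test), and 1 fell, ORY (-0.56 ± 0.23, 0.0443). Over all genes tested 32.6% rose and 36.4% fell. The call of ORY was lost without control replicate 1, where its value was -0.22. kl-3 had 0.26 ± 0.21 (0.288), and without control replicate 1 it was higher at 0.63 (adjusted p = 2.15e-04), while without control replicate 2 it stood at -0.07. kl-5 had -0.10 ± 0.17 (0.613), with 0.18 and -0.37 in the same order. These values depended on which control library was kept.

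**Figure D5:**
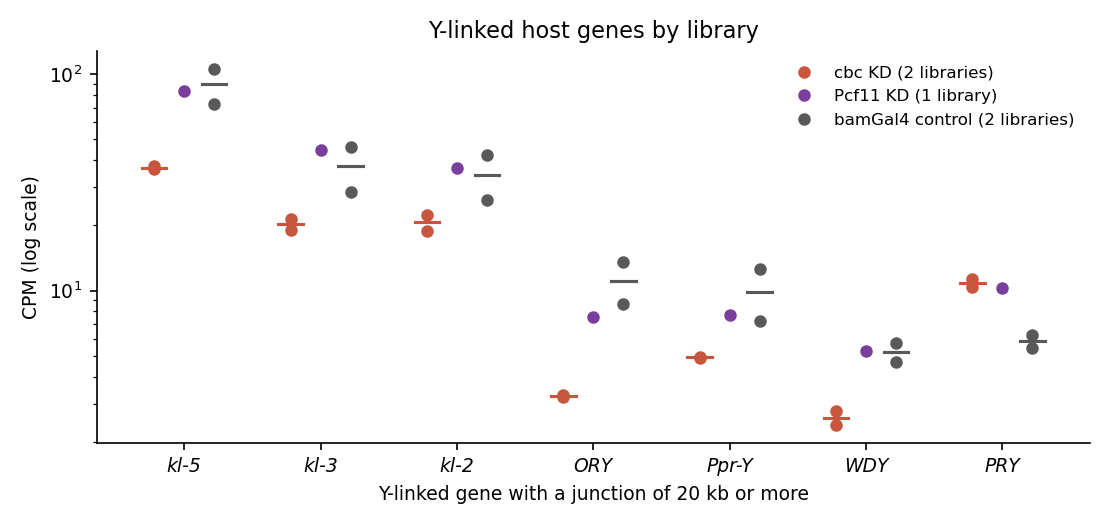
CPM (log axis) of the 7 Y-linked genes that host a junction of 20 kb or more, with a point for each library of cbc knockdown, Pcf11 knockdown and the bamGal4 control and a short line at the mean of 2 libraries. The cbc points of kl-5, kl-3, kl-2, ORY, Ppr-Y and WDY lie below both control points, and those of PRY above them.

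The hosts that rose most in cbc knockdown were sns, side-III, lov, Tmtc1, rsh and olf413, all below 7 CPM in both controls. sns, a cell adhesion receptor of myoblast fusion whose only long junction was unannotated and had 1 read, had 31.6 and 33.2 CPM in cbc knockdown, 4.79 CPM in Pcf11 knockdown, and 2.14 and 2.65 CPM in the controls. This was a log2 fold change of 3.76 ± 0.14 SE in cbc knockdown (adjusted p = 9.35e-10, edgeR quasi-likelihood test) and 1.002 ± 0.16 in Pcf11 knockdown (1.76e-04). lov, a BTB-domain factor, had 22.1 and 31.5 CPM in cbc knockdown, 12.7 CPM in Pcf11 knockdown, and 3.07 and 2.99 CPM in the controls. Its log2 fold changes were 3.15 ± 0.17 and 2.07 ± 0.19, and those of rsh, a gene of olfactory memory, 2.60 ± 0.11 and 2.19 ± 0.12. side-III rose by 3.23, Tmtc1 by 2.96 and olf413 by 2.57 in cbc knockdown. Long-junction support in these genes was 1 to 26 reads, highest in rsh, whose intron of 20019 bases lay just over the length limit.

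The hosts that fell most in cbc knockdown besides ORY had 10.2 to 150.1 CPM in the controls. Mmp2, a matrix metalloprotease, had 6.08 and 4.43 CPM in cbc knockdown, 2.49 CPM in Pcf11 knockdown, and 35.2 and 41.8 CPM in the controls. Its log2 fold changes were -2.88 ± 0.15 (adjusted p = 1.57e-08, edgeR quasi-likelihood test) and -3.95 ± 0.21 (4.31e-08). Fas3, a homophilic adhesion molecule that marks the hub, had 18.7 and 16.6 CPM in cbc knockdown, 11.01 CPM in Pcf11 knockdown, and 72 and 68.8 CPM in the controls. Its values were -1.995 ± 0.10 and -2.68 ± 0.13. unc-13-4A, of the Munc13 family of vesicle priming factors, whose only long junction was unannotated and had 2 reads, had 40.7 and 33.3 CPM in cbc knockdown, 16.8 CPM in Pcf11 knockdown, and 150.1 and 149.9 CPM in the controls. Its values were -2.02 ± 0.10 and -3.16 ± 0.14. wat, a fatty acyl-CoA reductase, and ome, a dipeptidyl peptidase, fell by 2.82 and 1.67 in cbc knockdown, and ome also by 2.78 in Pcf11 knockdown. Both comparisons use the same controls.

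In Pcf11 knockdown the hosts that rose most were inv, rsh, hiw, Msp300, lov and Ank2. inv, a homeodomain factor, had 31.9 and 34.9 CPM in cbc knockdown, 37.9 CPM in Pcf11 knockdown, and 5.51 and 5.81 CPM in the controls. Its log2 fold change in Pcf11 knockdown was 2.74 ± 0.12 (adjusted p = 1.19e-08, edgeR quasi-likelihood test). Msp300 had 486 and 647 CPM in cbc knockdown, 955 CPM in Pcf11 knockdown, and 243 and 203 CPM in the controls, and rose by 2.10 ± 0.15 in Pcf11 knockdown (3.32e-07). hiw, a ubiquitin ligase of synapses, and Ank2, an ankyrin, rose by 2.14 and 1.87. The lowest values besides those above were -2.63 in mgl, the endocytic receptor megalin, with 126 and 119 CPM in cbc knockdown, 60.3 CPM in Pcf11 knockdown, and 340 and 404 CPM in the controls, and -2.52 in Fas2, a neural cell adhesion molecule.

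Genes of splicing and elongation were counted from short lists, chosen with earlier results of these data known. Of all genes tested 36.3% rose and 37.8% fell in cbc knockdown, and 32.6% rose and 36.4% fell in Pcf11 knockdown. Of 16 core spliceosome genes tested 6 rose and 7 fell in cbc knockdown (median -0.24), and 3 rose and 11 fell in Pcf11 knockdown (median -0.55). Prp8, the scaffold of the catalytic core, had 77.8 and 65.5 CPM in cbc knockdown, 28.6 CPM in Pcf11 knockdown, and 81.4 and 96.2 CPM in the controls. Of 12 genes of transcription elongation and termination 6 rose and 4 fell in cbc knockdown (median 0.11), and 4 rose and 7 fell in Pcf11 knockdown (median -0.58). Of 6 genes of U1 snRNP and U2AF, which recognize the ends of introns, 3 rose and 3 fell in cbc knockdown, and 2 rose and 2 fell in Pcf11 knockdown. Of 5 tested genes of the exon junction complex 1 rose and 1 fell in cbc knockdown, and 1 rose and 4 fell in Pcf11 knockdown. Of 3 RNA-binding proteins studied on giant Y transcripts, blanks, heph and bol, 2 rose and 1 fell in cbc knockdown, and 1 rose and 2 fell in Pcf11 knockdown. Of 11 tested Y-linked fertility genes 2 rose and 6 fell in cbc knockdown, and 4 rose and 2 fell in Pcf11 knockdown. Pp1-Y1, a Y-linked phosphatase gene of that list that hosts no long junction, was left out by the filter on low counts. It had 0 and 0 counts in cbc knockdown, 765 counts in Pcf11 knockdown replicate 2, and 1 and 2 counts in the controls, so that 1 library alone held nearly all of its reads.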

How the data were processed

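Per the submitters' processing notes, the tools used were Trim Galore, STAR, SAMtools and deepTools with the builds dm6 and BDGP6; the tools' versions and the annotation release are not given in the sources used here. The authors deposited raw counts of reads per gene for 5 libraries and, for the remaining one, raw counts of uniquely mapped and multi-mapped reads per splice junction. The deposited junction table also holds the longest overhang in bases. Annotated introns, genes and transposable elements came from the Ensembl annotation of BDGP6, matched on start, end and strand. Read counts on junctions carry no molecular identifiers, so exact Clopper-Pearson intervals cover counting error only.

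Counts in the sense column were fitted with edgeR 4.0.16 in R 4.3.3 (quasi-likelihood test, TMM factors, 5 libraries and 3 groups in 1 fit). Genes needed 10 counts in at least 2 libraries, and calls were made at an adjusted p of 0.05 over all 13960 genes tested. CPM used TMM-scaled totals, and entries that name no gene were left out, with 2.62% and 2.86% of reads without a feature in cbc knockdown, 1.53% in Pcf11 knockdown, and 1.36% and 1.35% in the controls. DESeq2 1.42.0 was an alternative. Both scripts were tested on simulated data. The named items are the hosts of the 8 most-read and 8 longest annotated junctions, every Y junction, hosts of at least 4 junctions, the 6 most-read unannotated junctions, 3 junctions on either side of the length limit, and the 6 largest rises and falls among hosts with a mean of at least 5 CPM. The junctions and gene lists were chosen with earlier results of these data known.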

Additional observations from a re-analysis of the deposited data

Results flagged for a closer look

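Junctions of 20 kb or more outside the rule also held reads. Rows with motif codes other than GT-AG carried 4634 unique reads, flagged as a signal in data that no comparison uses. A further 1145 GT-AG junctions of that length had multi-mapped reads only, flagged for the same reason. There was no control library with junction reads to set beside either value.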

How the results depend on the processing

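Counts and shares of long junctions moved with the rule. With at least 3 unique reads there were 1113 (34.1% annotated, median 7 reads, 3.59% on the Y), and with an overhang of at least 20 bases 1757 (29.3% annotated, 3.53% on the Y). From 10 kb there were 5539 (25.4% annotated, 2.08% on the Y), and from 50 kb 658 (16.7% annotated, 3.65% on the Y). The 548 annotated ones had a median of 6 reads and 1.64% on the Y. The within-gene ratio was 0.434 from 50 kb and 0.448 against the mean of the gene's shorter junctions. Called hosts stayed within 1.5 times under every alternative run, and from 262 to 288 were called in cbc knockdown, 281 to 303 in Pcf11 knockdown and 309 to 323 between the knockdowns when 1 library was left out. The cause of these shifts was not tested.

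With the replicate number as a block, 288 hosts were called in cbc knockdown, 283 in Pcf11 knockdown and 307 between the knockdowns. Same-numbered control and cbc libraries deviated with a correlation of -0.104, a single value that cannot show whether they were paired. A crossed replicate block, added after the data were seen, gave 293, 295 and 317. In Pcf11 knockdown against control kl-5 was 0.054 with the replicate block and 0.080 with the crossed one.

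Of 900 alternative values for 75 single-gene fold changes, 843 kept direction and call, 16 lost the call, 18 gained it and 23 changed sign. In Pcf11 knockdown against control, library totals gave -0.26 for WDY, -0.16 for kl-2, -0.021 for kl-3, -0.16 for CG6051, -0.24 for klhl10 and -0.063 for cbc. The unstranded counts gave -0.023 for WDY and -0.0083 for klhl10. RLE factors and DESeq2 each gave 0.048 for kl-5. With 1 library left out, Ppr-Y ran from -0.72 to 0.080, WDY from -0.14 to 0.16, kl-2 from -0.21 to 0.48, kl-3 from -0.072 to 0.63, kl-5 from -0.37 to 0.18 and klhl10 from -0.12 to 0.18, each lower and upper end coming from 1 of the controls left out. In cbc knockdown against control, bru1 was 0.14 with library totals. There nmo was -0.068 without the filter, -0.041 with unstranded counts, and ran from -0.050 to 0.075 with 1 library left out. The count of recursive junctions and its alternatives were not run, since they need a genome sequence. Junction values rest on 1 library, and introns in weakly expressed genes can be missed at this depth.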
